A study of Mus musculus with 3 samples.

Results

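The cells described here carry the deposited name Dendritic cell I and held 0 or 1 UMI of Xcr1, Clec9a and Wdfy4 together, genes that mark type 1 conventional dendritic cells (cDC1). A UMI (unique molecular identifier) is 1 counted RNA molecule. There were 248 such cells among 14353 ovarian cells and among the 436 cells named Dendritic cell I. The other 188, with 2 or more UMIs of these genes, are called the cDC1 side below. The choice used measured values, so the level of the 3 genes and of every gene that goes with them is a description of the choice and was not tested.

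The study asked whether metformin, a drug for type 2 diabetes, alters the fibrosis that builds up in the ageing ovary. All mice were C57BL/6 females, and the labels name no transgene. The young mice were 3 months old and untreated. The aged mice were untreated and their age is not stated for the cells. The metformin mice, called Prevention Metformin in the labels, drank water with the drug (350 mg/kg/day) from an age of 14 months on, over 6 months. For each group 3 left ovaries, from 3 of its 5 mice, became 1 pooled suspension, digested with enzymes for 30 min at 37 °C and strained through a mesh of 40 µm that held back the oocytes. Cells were labelled with MULTI-seq tags, mixed and run with the 10x Genomics 3′ v3 kit as pools A, B and C.

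The protocol describes 1 suspension per group, so each condition is treated as 1 sample and the pools as technical repeats of it, with no p-value. The labels do not say whether the pools hold cells of different mice. Intervals are exact 95% intervals that cover counting error only. Levels are CPM: the UMIs of a gene summed over a group of cells, with the total of the group scaled to 1000000. Of the 248 cells, 157 were young (43, 39 and 75 in pools A, B and C), 37 aged (10, 12 and 15) and 54 metformin (16, 20 and 18). They held 899708, 178034 and 290982 UMIs, with medians per cell of 5291, 5252 and 5568 and a median mitochondrial percent of 1.38, 1.33 and 1.47. A total of 52 cells in all shared a cell barcode with a cell of another pool, and 2 of the 248 cells did, with each other.

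Conventional dendritic cells take up antigen in tissues and present it to T cells. The type 2 subset (cDC2) is known for C-type lectin receptors such as Cd209a, Mgl2 and Clec10a and for presentation on MHC class II molecules to CD4 T cells. On maturation dendritic cells gain the chemokine receptor Ccr7, which guides them to lymph nodes, and the actin-bundling protein fascin (Fscn1). In the ovary, dendritic cells sit among a larger population of macrophages, which share several of their receptors.

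MHC class II genes share a promoter architecture that includes the Y box, whose core letters are ATTGG and which the factor NF-Y binds. The 100 bases before the start of 2 of the most abundant class II genes in these cells are shown, because class II genes are among those compared below. Capitals mark ATTGG, searched on the strand of the gene.
H2-Aa (GRCm38.p6, chr17:34287824-34287923, minus strand): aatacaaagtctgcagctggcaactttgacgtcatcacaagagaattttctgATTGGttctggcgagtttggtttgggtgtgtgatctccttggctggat
H2-Eb1 (GRCm38.p6, chr17:34305767-34305866, plus strand): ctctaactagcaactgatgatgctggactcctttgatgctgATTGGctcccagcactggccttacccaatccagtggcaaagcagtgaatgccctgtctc
Both sequences are from RefSeq. The match begins 48 bases before the start of H2-Aa and 59 bases before that of H2-Eb1, and H2-Eb1 also holds CCAAT, the same letters on the other strand. In windows of this length, ATTGG on the strand of the gene was found in 10.4% of 32851 promoters, and either ATTGG or CCAAT in 18.9%. A match describes letters and is not a binding site.

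The name was checked against markers. Cd209a, the mouse lectin named after human DC-SIGN, was at 1123 CPM in these cells and 7.88 CPM in all other cells, with a UMI in 65.3% against 0.770% of cells. Cd74, the class II invariant chain, and H2-Aa, a class II alpha chain, had a UMI in all or nearly all of them (248 and 247 cells). None of 975 cells named T cell/NKT had a UMI of Cd209a, which allows a share of cells with a UMI of up to 0.308% (3 of 975 cells), at a median of 2018 UMIs per cell against 5307. The 15 genes with the largest ratio to other cells among those found in at least 25% of the 248 cells were, in order, Cd209a, Tnip3, Tnfsf9, H2-Oa, Kmo, Flt3, AA467197, H2-DMb2, Napsa, Clec10a, Ryr1, Mcemp1, Pmaip1, Dpp4 and Mgl2. Flt3 is the receptor for the growth factor of dendritic cells. H2-DMb2 helps load peptides onto class II molecules, and H2-Oa is an inhibitor chain of that loading. Because the deposited names came from the same counts, these ratios describe the cells and test nothing.

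Markers of most other cells were low but not all absent. The 13 monocyte markers were not low, at 2602 CPM in young, 3050 in aged and 2681 in metformin cells when summed. The 13 cDC2 markers summed to 4656, 1994 and 2681 CPM, so in aged cells the monocyte sum was the larger. The 10 B cell markers summed to 197, 286 and 165 CPM. The 16 macrophage markers summed to 918 CPM in young (pools 589 to 1374), 814 in aged (463 to 1400) and 680 in metformin cells (454 to 827). The complement gene C1qb, high in macrophages at 4435 CPM, was at 183 CPM and had a UMI in 15.3% of the cells. No UMI of C1qa, C1qb or C1qc was found in 192 of the 248 cells. Other members of the macrophage list differed. Mertk, Folr2, Lyve1 and Pf4 had 1, 2, 1 and 2 UMIs in all 248 cells together, but Mrc1 had a UMI in 22.2% of them. The T cell list of 12 genes summed to 14.4, 28.1 and 13.7 CPM, and Cd3e was at 0. The 10 fibroblast markers summed to 381 CPM in young, 500 in aged (1082 in pool A) and 302 in metformin cells. Their part in the results was not tested.

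Just inside and just outside the rule, the cells were alike in Cd209a but less so in other genes. Of the 436 cells, 165 had 0 UMIs of the 3 rule genes, 83 had 1, 42 had 2, 23 had 3 and 123 had 4 or more. Cd209a was at 1065 and 1229 CPM in cells with 0 and 1 UMI, at 1236 CPM in those with 2, at 416 CPM in those with 3 and at 43.7 CPM in those with 4 or more. Irf8, a transcription factor of cDC1, ran the other way, with 36.2, 90.7, 173, 779 and 1393 CPM. Wdfy4, needed for cross-presentation by cDC1, gave 76 of the UMIs of rule genes that remained in the 248 cells, Xcr1 gave 4 and Clec9a 3. Mgl2 was at 1167 CPM in cells with 1 UMI and at 684 CPM in those with 2. The rule leaves the cells with 2 UMIs, as high in Cd209a as those inside it, on the cDC1 side.

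**Figure D1:**
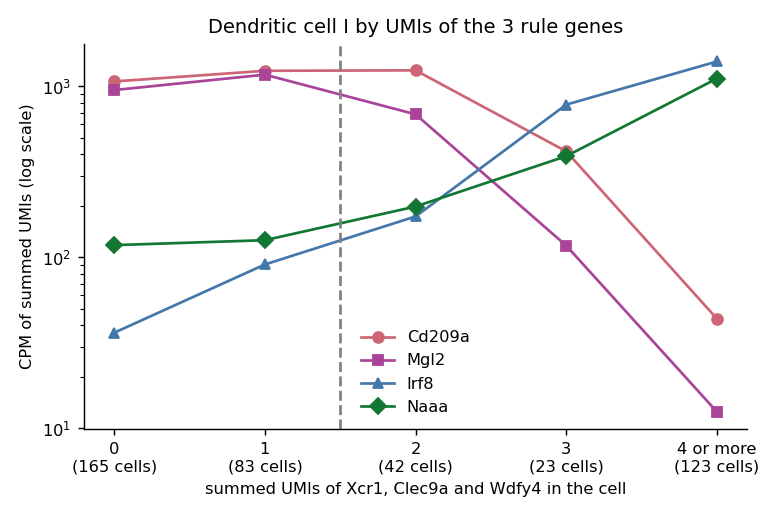
Levels (CPM, log scale) of Cd209a, Mgl2, Irf8 and Naaa in the 436 cells named Dendritic cell I, grouped by their summed UMIs of Xcr1, Clec9a and Wdfy4. The dashed line is the rule: Cd209a is at 1229 CPM just inside it, 1236 CPM just outside it and 43.7 CPM in cells with 4 or more UMIs.

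The first comparison is of untreated aged with young ovaries. The cells made up 2.06% of young cells (157 of 7620, interval 1.75 to 2.40) and 1.24% of aged cells (37 of 2979, 0.876 to 1.71), a ratio of 0.603 (0.409 to 0.867). By pool the ratio was 0.474 in A, 0.818 (0.390 to 1.59) in B and 0.645 (0.344 to 1.13) in C. All 3 pools lay below 1, and in B and C the interval includes 1. Without pool A the ratio was 0.692 and its interval included 1 (0.437 to 1.06), as it did without pool C (0.619, 0.368 to 1.001). Of immune cells the share was 5.10% in young and 3.31% in aged, a ratio of 0.650 (0.441 to 0.934). Among all cells named Dendritic cell I the share was 52.2% in young and 68.5% in aged, and the interval of that ratio includes 1 (1.31, 0.892 to 1.89). Shares also depend on the dissociation, the strainer and a sorting gate that the labels do not give.

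**Figure D2:**
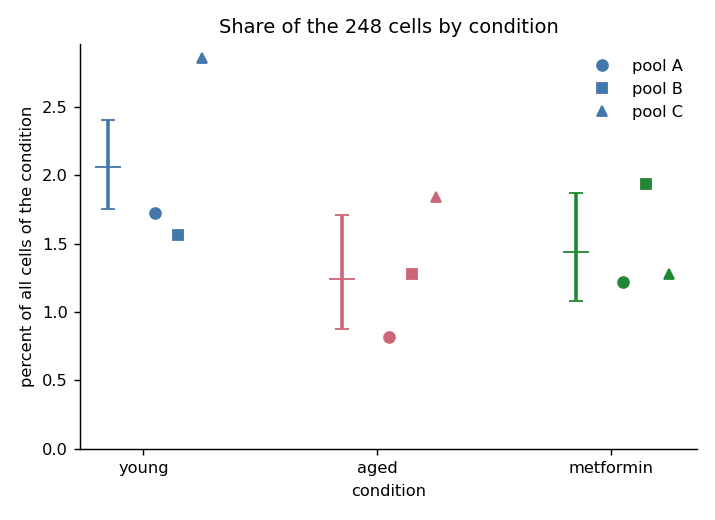
Percent of all cells of a condition that are among the 248 cells, for all pools together (horizontal mark with exact 95% counting interval) and for pools A, B and C (points). The aged share, 1.24%, lies below the young share, 2.06%, and the metformin share is 1.44%.

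Within these cells, lectins and chemokines were lower in aged than in young ovaries, while genes of mature dendritic cells and of cholesterol synthesis were higher. Of 5050 genes that reached 20 UMIs in young and aged cells together, 621 (12.3%) differed by at least 2-fold, 329 higher (6.51%) and 292 lower (5.78%), with 1 UMI added to each count. By sign alone 2909 of them were higher and 2141 lower. The added UMI lifts low genes in the smaller aged group. With an added count in proportion to the totals, 224 were higher and 486 lower, and with the median ratio set to 0, 266 and 356. With 5 UMIs added, 783 were higher and 34 lower, so the balance of directions over all genes depends on this choice. The named genes below hold at least 50 UMIs, and for them the ratio is given without any added count.

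C-type lectins and uptake receptors bind sugars and immune complexes and carry antigen into the cell. Of 17 measured members, 16 were lower in aged cells and 8 of these at least 2-fold, with a median log2 ratio of -0.98 against 0.09 over all genes measured. Cd209a (chromosome 8, 3743397 to 3748984 in GRCm38) was at 1140, 1741 and 1328 CPM in young pools A, B and C and at 265, 399 and 572 CPM in the aged pools. Every aged pool lay below every young pool. The log2 ratio was -1.70 (-2.05 to -1.36), and 118 of 157 young cells (75.2%) and 14 of 37 aged cells (37.8%) had a UMI. Thinned to 1000 UMIs per cell, with 2 shallower cells left out in each condition, the shares were 54.2% and 22.9%. In sums like these, fewer cells with a gene's RNA and less of it per cell cannot be told apart.

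Mgl2, which encodes the lectin CD301b and binds galactose-type sugars, differed more. It stood at 1366, 1540 and 1289 CPM in young pools and at 61.2, 47.9 and 557 CPM in aged pools. The aged pools again lay below all young ones, but 1 cell held 83.7% of the aged UMIs. The log2 ratio was -2.51 (-2.98 to -2.07), and 58.0% of young but 10.8% of aged cells had a UMI. With 1 UMI added the ratio was -2.48, and -4.53 without pool C. Its neighbour and close paralogue Clec10a (CD301a) was at 446 and 258 CPM (-0.79, -1.26 to -0.34), and in pool A it was nearly level at 385 and 367 CPM. Reads of these 2 similar genes could in part be assigned to the wrong one. Both lie on chromosome 11, Mgl2 from 70130329 to 70137550 and Clec10a from 70156197 to 70170834.

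Other receptors of the list followed the same direction. Mrc1, the mannose receptor, had 107 UMIs in young and 3 in aged cells, with a log2 ratio of -2.82 (-5.12 to -1.23). The lectin gene Clec4b1 was at 315 and 107 CPM (-1.56, -2.31 to -0.89). Fcer1g, the signalling chain that many of these receptors share, was the most abundant and moved least, from 2146 to 1809 CPM (-0.25, -0.42 to -0.08). The 1 member that was higher was Itgax (CD11c), at 96.7 and 118 CPM, with an interval that includes 0 (-0.48 to 0.99). Dab2, an endocytic adaptor, and Cd14, a co-receptor for lipopolysaccharide, were both lower, from 298 to 78.6 CPM and from 163 to 39.3 CPM. All 7 aged UMIs of Cd14 came from pool C. Cells that held 2 or more UMIs of markers of another class are called possible doublets. Doublets, free RNA and RNA of the cells' own cannot be told apart by this count. Without the possible doublets 114 of the 248 cells remained. The log2 ratio of Cd14 with 1 UMI added then went from -1.87 to -0.20 and that of Mrc1 from -2.42 to -1.40. Of the 9 measured markers of cDC2 6 were lower (median -0.73), and of 9 markers of monocyte-derived dendritic cells 8 (-0.88), which include Cd209a and Mgl2.

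Chemokines draw other immune cells. Of 13 measured, 12 were lower and 8 at least 2-fold, with a median of -1.44. Ccl17, a ligand of the receptor Ccr4 on T cells, gave 217 UMIs in 28 of 157 young cells and none in 37 aged cells. The young pools stood at 262, 132 and 290 CPM. Against a floor of 3 UMIs over the aged group it was at least 14.3-fold lower, while a count of 0 allows a share of cells with a UMI of up to 8.11%, taken as 3 of 37 cells. Its genomic neighbour Ccl22, which binds the same receptor, was at 136 and 44.9 CPM (-1.59, -2.84 to -0.57). Ccl4 and Ccl3, inflammatory chemokines that draw T cells and monocytes, were lower too. Ccl4 was at 1052, 1336 and 694 CPM in young pools and 61.2, 527 and 331 CPM in aged ones (-1.56, -1.97 to -1.18), and Ccl3 was at 71.1 and 5.62 CPM (64 and 1 UMIs, -3.66, -8.99 to -1.13). With 1 UMI added, Ccl4 was at -0.75 without the possible doublets, against -1.54, and Ccl3 at -0.66 after thinning, with 6 UMIs left, against -2.69.

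The exception was Cxcl16, the membrane-bound ligand of Cxcr6, at 188 CPM in young and 404 CPM in aged cells (1.11, 0.69 to 1.51). It was at 131, 179 and 227 CPM in young pools and 571, 367 and 316 CPM in aged ones, with no overlap. Without pool B the median of the list was -0.87, and without cells that held a UMI of Ccr7 or Fscn1 it was -0.59.

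Markers of mature, migrating dendritic cells were mostly higher. Of 14 measured, 11 were higher in aged cells and 9 at least 2-fold, with a median of 1.51, and the 3 lower ones were the chemokines Ccl17, Ccl22 and Ccl5. Ccr7 itself was at 135, 137 and 160 CPM in young pools and 755, 575 and 437 CPM in aged pools. The groups did not overlap and the log2 ratio was 1.97 (1.58 to 2.35). A UMI was found in 13.4% of young and 35.1% of aged cells (9.03% and 22.9% after thinning), against 9.52% and 6.79% of T cells, some of which also express this receptor.

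Relb, a subunit of the non-canonical NF-kB pathway, was at 60.0 CPM in young and 247 CPM in aged cells (2.04, 1.43 to 2.64), and Birc2, an inhibitor of that pathway and of cell death, at 48.9 and 197 CPM (2.01, 1.32 to 2.68). In pool C Birc2 was level, at 33.9 and 30.1 CPM. Il4i1, a secreted amino acid oxidase, was at 112 and 320 CPM (1.51, 1.02 to 1.99). Samsn1 (104 and 292 CPM), Socs2, a brake on cytokine signals (42.2 and 129 CPM), and the tetraspanin Cd63 (103 and 326 CPM) were higher as well. For Cd63 the share of cells with a UMI was alike, at 14.0% of young and 16.2% of aged cells (22 and 6 cells).

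Several further genes that were higher in aged cells were carried by few cells. Tspan3, another tetraspanin, was at 53.4 and 382 CPM (2.84, 2.29 to 3.40), and Anxa3, an annexin, at 48.9 and 247 CPM (2.34, 1.70 to 2.97). Gclc, which makes the glutathione precursor, was at 25.6 and 185 CPM (2.86, 2.05 to 3.69), but 1 cell held 72.7% of the aged UMIs, and in pool C it was lower, at 26.6 and 15.1 CPM. Cstb, a protease inhibitor, was at 178 and 472 CPM, with 51.2% of the aged UMIs in 1 cell. Without pool A the log2 ratio with 1 UMI added went from 1.42 to 0.14 for Cstb and from 2.84 to 0.94 for Gclc. Mff, which acts in mitochondrial division, Avpi1 and Arl5c were higher in every pool (1.67, 1.30 and 1.57). Fabp5, a fatty acid binding protein named here after its values were seen, was at 199, 141 and 193 CPM in young pools and 61.2, 1262 and 2333 CPM in aged ones. Its log2 ratio was 2.88 (2.58 to 3.17), and aged pool A lay below all young pools.

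Much of this rested on cells with Ccr7 or Fscn1. Without the 45 cells that held a UMI of either gene, a choice made after seeing the data, 133 young, 24 aged and 46 metformin cells remained. The log2 ratio with 1 UMI added then went from 1.52 to 0.01 for Il4i1, from 2.34 to 0.36 for Anxa3 and from 2.84 to 0.36 for Gclc. Samsn1 was at 0.47, Socs2 at 0.65 and Cstb at 0.40, and Tspan3 changed sign, from 2.83 to -1.27. Relb (1.55), Birc2 (1.24) and Mff (1.64) stayed above 1. Cd209a was at -1.56 and Mgl2 at -1.82 in the remaining cells, so the lower lectin levels were also measured there.

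Genes of cholesterol synthesis were higher in aged cells for 8 of 9 measured, 5 at least 2-fold, with a median of 1.23. Idi1, an isomerase of the mevalonate pathway, was at 31.8, 111 and 21.8 CPM in young pools and 184, 160 and 181 CPM in aged pools (1.87, 1.15 to 2.57). In macrophages Idi1 was higher with age as well, in every pool (1.49 with 1 UMI added). Fdps, the next enzyme of the pathway, was at 48.9 and 135 CPM (1.46, 0.68 to 2.21). Srebf2, a transcription factor of the pathway, had an interval that includes 0 (0.13, -0.86 to 1.01). These are low genes, with 12 to 31 aged UMIs each for those that passed 2-fold, and without pool B the median was 0.76.

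MHC class II genes were slightly lower for 10 of 11 members, with none past 2-fold in that direction and a median of -0.39. Cd74 stood at 27901, 26634 and 26030 CPM in young pools and 19897, 18404 and 21374 CPM in aged pools (-0.42, -0.47 to -0.37). H2-Ab1, a class II beta chain, was at 8677, 9690 and 9878 CPM and then 5347, 5144 and 8098 CPM (-0.59, -0.68 to -0.50). H2-Aa (-0.31) and H2-Eb1 (-0.41), whose promoters are shown above, were lower by less, again with every aged pool below every young pool. H2-Eb2 was the exception, from 19 to 15 UMIs, or 21.1 to 84.3 CPM. MHC class I genes leaned the other way, with 17 of 21 higher and a median of 0.26, and H2-K1 and H2-D1 went from 1328 to 1668 and from 1943 to 2393 CPM.

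Stress and metal genes were lower, but not only in these cells. Mt1, a metallothionein, was at 981, 990 and 1320 CPM in young pools and 143, 208 and 226 CPM in aged pools (-2.53, -3.06 to -2.05). In the cDC1 side it went from 600 to 142 CPM and in macrophages from 980 to 586 CPM. The heat shock genes Hspa1a and Hspa1b, near-identical copies whose reads can be mixed, were at 327 and 78.6 CPM and at 247 and 44.9 CPM. Hspa1a was lower to a like degree in the cDC1 side (379 and 89.5 CPM) and in macrophages (370 and 93.8 CPM). Of 34 immediate early and dissociation genes measured, 24 were lower, with a median of -0.23, and Fos, the most abundant, was level at 3122 and 2926 CPM. Ier3, an early response gene, was at 544 and 191 CPM (-1.51). Kmo, an enzyme of tryptophan breakdown, had 78 and 2 UMIs (-2.95, -6.02 to -1.05), and Hpgd, which inactivates prostaglandins, 62 and 1 (-3.62, -8.94 to -1.09).

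**Figure D3:**
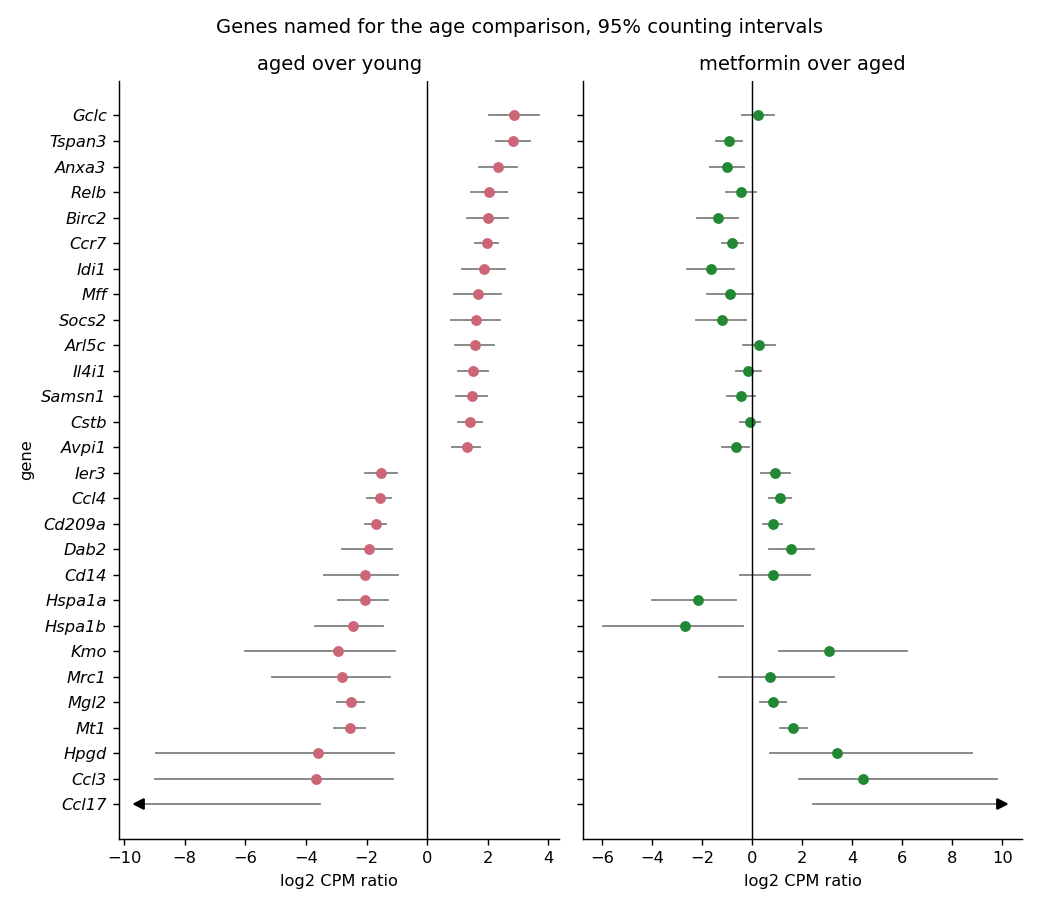
Log2 CPM ratios with exact 95% counting intervals for the 28 genes named for the age comparison, aged over young (left) and metformin over aged (right). Both panels share the aged cells, and arrows mark Ccl17, which had no UMI in aged cells.

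Other lists moved less. Of 24 cell cycle genes 20 were lower, with a median of -0.64, but the median was 0.29 without the sub-cluster of dividing cells described below. Of 20 lysosome and lipid genes 14 were higher (0.43), but the median was -0.13 without the cells that held Ccr7 or Fscn1. The ferritin chain Ftl1 was at 2678 and 4409 CPM. Of 9 genes linked to senescence 5 were lower (-0.98, and 0.016 after thinning), among them the cell cycle inhibitor Cdkn1a at 477 and 202 CPM. Costimulation genes split 6 higher and 8 lower, and Tnfsf9 (4-1BB ligand) was at 721 and 286 CPM. Of 10 cytokine genes 5 were higher, and Il1b was level at 2983 and 3039 CPM. Il12b, a subunit of interleukin 12, was higher at 40.0 and 191 CPM (36 and 34 UMIs, 2.25, 1.53 to 2.97). All 91 UMIs of Il12b over the 3 conditions lay in the mature-like sub-cluster described below, which held 7 aged cells. Of 7 chemokine receptors 4 were higher and 3 lower, a split like that of all genes, and Ccr2, the receptor of monocyte-derived cells, was lower at 455 and 242 CPM (-0.91, -1.40 to -0.46). Medians of complex I (0.08), of the rest of the respiratory chain (0.02) and of the AMPK and mTOR axis (0.14, 7 genes) were close to that of all genes, and the 12 other lists of gene functions had medians between -0.23 and 0.41.

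**Figure D4:**
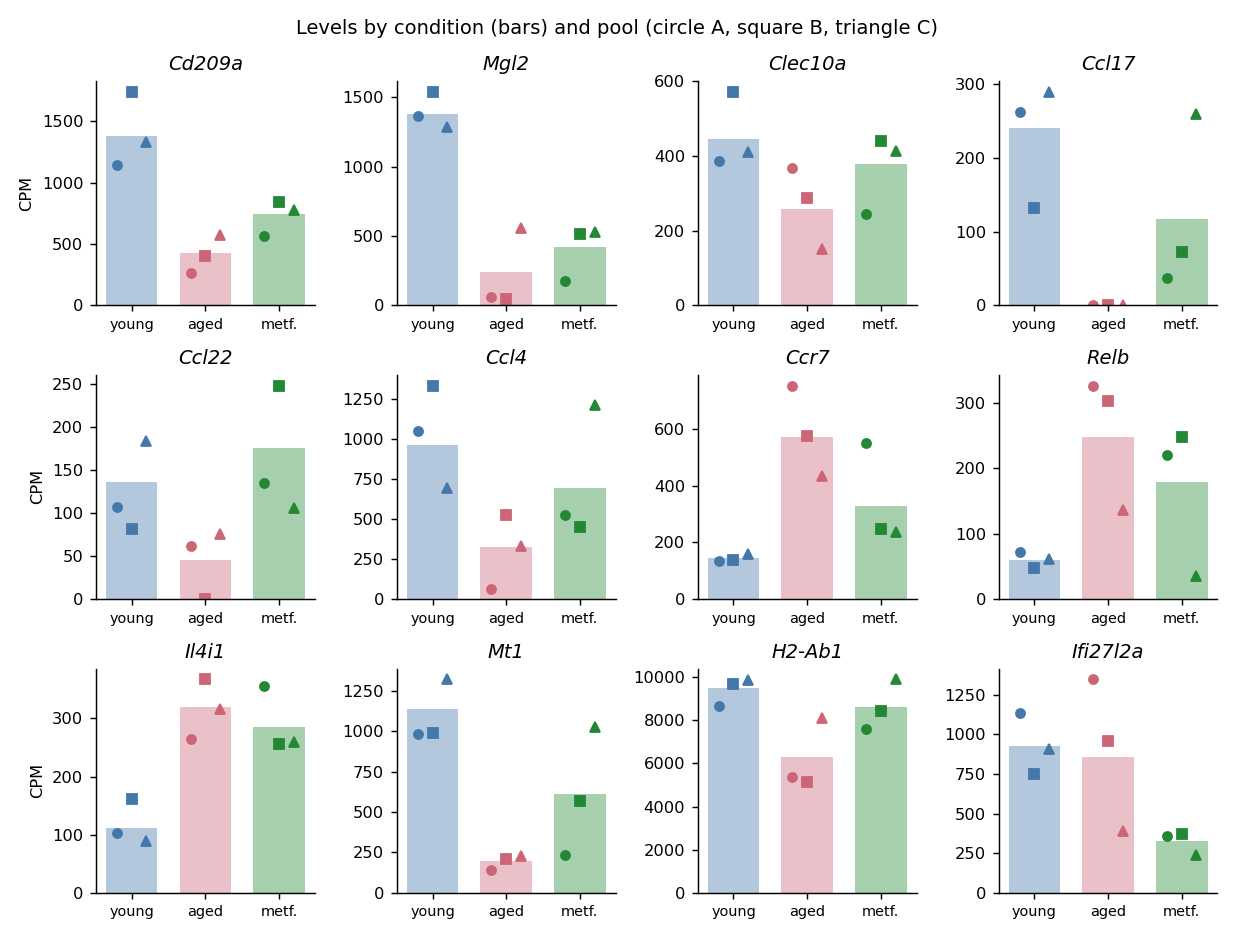
CPM of 12 genes in young, aged and metformin cells (metf.), with bars for all pools together and points for pools A (circle), B (square) and C (triangle). Cd209a, Mgl2, Ccl17 and Mt1 are lower and Ccr7, Relb and Il4i1 higher in every aged pool than in every young pool.

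The second comparison is of metformin, given from before the onset of fibrosis, with untreated aged ovaries. The age of the untreated mice is not stated for the cells, and each condition is 1 suspension. The drug, any difference in age and differences between suspensions therefore cannot be told apart. This comparison uses the same aged cells as the first, so a low or high aged value moves both. The cells were 1.44% of metformin cells (54 of 3754, 1.08 to 1.87), a ratio to aged of 1.16 (0.748 to 1.81), and of immune cells 2.73% (0.825, 0.533 to 1.29). Both intervals include 1. By pool the ratio was 1.50, 1.52 and 0.692, so the pools did not share a direction. Of 2853 genes measured, 221 (7.75%) differed by at least 2-fold, 103 higher (3.61%) and 118 lower (4.14%), and without pool B 128 of 1821 did (7.03%). By sign alone 1291 of the 2853 genes were higher and 1562 lower. By the rule on size, pools and counts 6 were named in each direction.

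Chemokines were higher with metformin for 7 of 10 measured, 6 at least 2-fold, with a median of 1.05 against -0.05 over all genes. Ccl17, with no UMI in aged cells, gave 34 UMIs in 5 of 54 metformin cells, at least 6.93-fold above a floor of 3 UMIs, and 61.8% of them came from 1 cell. Ccl22 was at 61.2, 0 and 75.3 CPM in aged pools and 135, 248 and 106 CPM in metformin pools (1.96, 0.88 to 3.25). Ccl5, a chemokine for T cells, was at 303 and 629 CPM (1.05, 0.61 to 1.52) and Ccl4 at 326 and 694 CPM (1.09, 0.66 to 1.54). In pool B Ccl4 was lower with metformin, at 449 against 527 CPM. Without pool B, Ccl22 with 1 UMI added went from 1.82 to 0.70 and Ccl5 from 1.03 to 1.89. Without the cells that held Ccr7 or Fscn1, Ccl5 changed sign to -0.72 and the list's median was 0.39.

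Lectins and class II genes were also higher. Of 12 lectins and uptake receptors 11 were higher, 1 of them at least 2-fold, with a median of 0.40. Cd209a was at 564, 842 and 779 CPM in metformin pools against 265, 399 and 572 CPM in aged ones (0.80, 0.42 to 1.195), and metformin pool A lay just below aged pool C. A UMI was found in 55.6% of metformin cells, against 37.8% of aged cells. Mgl2 was at 423 and 242 CPM (0.81, 0.30 to 1.34), and 37.0% of metformin cells had a UMI. In pool C Mgl2 was level, at 531 and 557 CPM. Of 11 class II genes 9 were higher, none past 2-fold, with a median of 0.44. Cd74 was at 24103, 28621 and 26733 CPM in metformin pools (0.43, 0.37 to 0.49), each above all aged pools. H2-Oa, the inhibitor chain of peptide loading, was at 152 and 302 CPM (0.996, 0.36 to 1.68).

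Among single genes, Mt1 was at 233, 569 and 1027 CPM in metformin pools, each above all aged pools (1.63, 1.10 to 2.20). In the cDC1 side Mt1 was level at 142 and 140 CPM, and in macrophages it was higher in every pool by less (0.26 with 1 UMI added). Egr3, an early response transcription factor, was at 39.3 and 162 CPM (2.04, 0.88 to 3.43), and Cfp, the complement factor properdin, at 163 and 416 CPM (1.35, 0.76 to 1.99). Cfp with 1 UMI added went from 1.32 to 0.79 without pool A and to 0.70 without the possible doublets. After thinning, with 10 UMIs left, Egr3 went from 1.88 to 0.43. Dab2 was at 78.6 and 227 CPM (1.53, 0.68 to 2.48).

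Genes lower with metformin included Ifi27l2a, an interferon-induced gene, at 1347, 959 and 391 CPM in aged pools and 356, 369 and 236 CPM in metformin pools (-1.39, -1.77 to -1.01). All metformin pools lay below all aged ones. It was lower in macrophages as well (1837 and 772 CPM, -1.25) but not in the cDC1 side (104 and 135 CPM, 0.38, -0.59 to 1.41). Of 9 interferon response genes measured 8 were lower (median -0.33), and only Ifi27l2a passed 2-fold. Smchd1, a chromatin protein, was at 247 and 68.7 CPM (-1.85), Cebpb, a transcription factor of myeloid cells, at 225 and 85.9 CPM (-1.39) and Dnaja1, a heat shock co-chaperone, at 607 and 299 CPM (-1.02). Smchd1 with 1 UMI added went from -1.81 to -0.96 without pool A. On that scale Ifi27l2a went from -1.38 to -0.82 without the possible doublets and to -0.68 after thinning, and Cebpb from -1.37 to -0.23 in the cells with 0 UMIs of the rule genes. AA467197 was at 286 and 113 CPM (-1.34), but without pool C its value with 1 UMI added was -0.19. Cd63 was at 326 and 127 CPM (-1.36) and changed sign, to 0.83 with 1 UMI added, without the cells that held Ccr7 or Fscn1.

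Cholesterol synthesis genes were lower with metformin for 7 of 8 measured, 5 at least 2-fold, with a median of -1.24. Idi1 went from 174 to 55.0 CPM (-1.66, -2.63 to -0.75), and Fdps at 135 and 68.7 CPM (-0.97, -1.90 to -0.05). Mature markers split 4 higher and 10 lower (median -0.47), and Ccr7 was at 573 and 330 CPM (-0.80, -1.21 to -0.38). MHC class I genes were lower for 14 of 17 (-0.13), but higher by 0.04 without pool B. Costimulation genes were higher for 7 of 9 (0.39), and the median was -0.15 without pool B. Complex I of the respiratory chain, which metformin is known to inhibit, and the rest of that chain held medians (-0.14 and -0.02) close to that of all genes, and 2 genes of the AMPK and mTOR axis could be measured (-0.98). Of 31 immediate early genes 17 were higher (0.04), and of 7 complement genes 3 (-0.71). The complement median was 0.067 without pool A and 0.11 without pool C, and the immediate early median -0.16 without pool B. The 15 other lists of gene functions had medians between -0.40 and 0.34.

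The 248 cells were clustered again to see how they vary among themselves, which gave 4 sub-clusters. The first, of 103 cells, was led by Tsc22d3, a glucocorticoid-induced gene, and Flt3. The second, of 28 cells, was led by Il12b, Zmynd15, Tnfrsf4, Nudt17 and Fscn1, with Ccr7 in 96.4% of its cells, and is mature migratory dendritic-like by its markers. The third, of 95 cells, was led by C1qb, Mrc1 and Fcgr3 and was high in Mgl2 (1820 CPM), and was left unnamed because macrophage markers were among its leading genes. The fourth, of 22 cells, was led by cell division genes such as Ccnb2, Top2a and Birc5 and also stays unnamed, with a median of 9034 UMIs per cell. Leading genes define the sub-clusters and are no result.

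The mature-like sub-cluster held no UMI of Cd209a in any of its 28 cells, so the 248 cells are not all of the Cd209a type. It made up 7.64% of young (4.01 to 12.97), 18.9% of aged (7.96 to 35.2) and 16.7% of metformin cells (7.92 to 29.3), and these intervals overlap. Sub-cluster 1 held 42.0%, 21.6% and 53.7%, sub-cluster 3 40.1%, 45.9% and 27.8%, and the dividing one 10.2%, 13.5% and 1.85%. Since the sub-clusters were formed with genes that differ between conditions, such as Mgl2 and Ccr7, these shares are not compared further.

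Levels inside the sub-clusters are given as a description. Cd209a was at 1340 CPM in young and 616 CPM in aged cells of sub-cluster 1 (66 and 8 cells), at 1787 and 510 CPM in sub-cluster 3 (63 and 17 cells) and at 1064 and 433 CPM in the dividing one (16 and 5 cells). It was thus lower in aged cells in each sub-cluster that held it. With metformin it was at 696 and 1396 CPM in sub-clusters 1 and 3. In the mature-like cells Ccr7 was at 1681, 2942 and 1745 CPM in young, aged and metformin, and Ccl22 at 1245, 155 and 836 CPM. Ccl17 there gave 61 UMIs in 12 young cells, 0 in 7 aged cells and 32 in 9 metformin cells. Fscn1 was at 695, 774 and 1054 CPM in the same cells, so the aged value lay between the other 2.

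Cells with both Cd209a and Ccr7 were few. Of the 162 cells with a UMI of Cd209a, 9 also had one of Ccr7, and of 115 cells with Mgl2, 6 did. Cd209a and Mgl2 were found together in 99 cells. In aged cells 14 had Cd209a, 13 had Ccr7 and 3 had both.

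The same contrasts in related cells place these values. In the cDC1 side, Cd209a was at 292 CPM in young and 119 CPM in aged cells (-1.29, -2.11 to -0.57). The pools did not share a direction, with -3.88, -1.53 and 1.62 in A, B and C with 1 UMI added. Its 42 cells with 2 UMIs of the rule genes, 3 of them aged, held Cd209a at 1236 CPM. Ccr7 was level in the cDC1 side at 117 and 119 CPM (0.03, -0.82 to 0.78). In macrophages Mgl2 went from 376 to 141 CPM (-1.42, -1.66 to -1.18) and Mrc1 from 472 to 165 CPM (-1.52, -1.75 to -1.30), so Mgl2 and Mrc1 were lower with age in macrophages as well. H2-Aa was lower with age in the cDC1 side (-0.21) and in macrophages (-0.40) too. With metformin it was higher by 0.35 in the 248 cells and by 0.13 (0.02 to 0.23) in the cDC1 side, and lower by 0.53 in macrophages. Pool C of the cDC1 side went the other way for H2-Aa, at 0.72 with age and -0.74 with metformin (1 UMI added). With 1 suspension per condition, the differences between cell classes were not tested.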

How the data were processed

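The deposited table holds whole-number UMI counts for 18789 genes and 14353 cells, which the authors made with Cell Ranger 3.0.2 (build GRCm38) as the submitters' processing notes state. Alongside, the authors deposited each cell's UMI count, mitochondrial percent, pool, condition, cell cycle phase and cell type name, per the file headers. No cell had a total under 500 UMIs or a mitochondrial percent above 20.0, the deposited doublet column marked none, and no doublet caller was run.

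UMIs of the 248 cells were summed per condition and scaled to CPM. Genes with 20 UMIs or more in the 2 conditions together were measured, and a log2 ratio of 1 or more in size, with 1 UMI added, counted as 2-fold. Counts of list members go by the sign of this ratio. Ratios with intervals have no added count, and exact intervals (Clopper-Pearson for shares, conditional on the sum for ratios) come from scipy 1.17.1. The intervals and signs were tested on simulated sums with known fold changes and counting error only. That test does not cover variation between cells or pools. The 248 cells were clustered with scanpy 1.11.5 (1000 variable genes, 15 components, 15 neighbours, Leiden resolution 0.5). Positions are from the annotation of GRCm38.

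Genes named by size had at least 50 UMIs and 5 cells with a UMI in the higher condition. They were ranked by the bound of their interval nearest 0, up to 14 in each direction, where it lay beyond 0.58 and pools with at least 5 cells of both conditions shared the sign with 1 UMI added. Malat1, Xist, gene models and the genes of mitochondria, ribosomes and haemoglobin could not be named. Other genes are the most abundant of a list or its exceptions, markers, and those said to be chosen after their values were seen. The cells and all gene lists were chosen with earlier results of these data known. Alternatives left out a pool, cells with possible RNA of other types or cells with C1q, thinned cells to 1000 UMIs, or changed the rule, the minimum, the added count or the scaling.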

Additional observations from a re-analysis of the deposited data

Results flagged for a closer look

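For 7 results, all 3 pools moved one way in the 248 cells and the opposite way in a related class under the same contrast. These differences were not tested. With age, the log2 ratio with 1 UMI added was 1.70 for Mff, against -1.22 in the cDC1 side. Also with age it was -2.69 for Ccl3 against 0.45 in macrophages, -1.87 for Cd14 against 0.44 in macrophages, and 2.83 for Tspan3 against -0.65 in macrophages. Ccl3 had a UMI in only 1 aged cell, and all aged UMIs of Cd14 came from pool C. In pools with no aged UMI these ratios rest on the added UMI. As given above, the Cd14 ratio shrank without possible doublets, and that of Tspan3 changed sign without cells holding Ccr7 or Fscn1. With metformin, Cd74 was at 0.43 against -0.64 in macrophages, H2-Aa at 0.35 against -0.53 and Dab2 at 1.45 against -0.56.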

How the results depend on the processing

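The share ratios kept their direction and stayed within the spread of the pools in all alternatives, apart from metformin over aged, where the interval always includes 1 and the ratio fell below 1 of immune cells (0.825) and with 0 UMIs of the rule genes only (0.985). Leaving out 1 pool gave 0.532 to 0.692 for age and 1.01 to 1.51 for metformin. For age the interval included 1 without pool A, without pool C and without possible doublets (0.667, 0.374 to 1.13). The same held with 0 UMIs of the rule genes only (0.742, 0.473 to 1.13). Counts of genes past 2-fold were 483 to 523 for age and 128 to 177 for metformin without 1 pool. They were 178 of 1270 genes measured (14.0%) and 41 of 572 (7.17%) after thinning, 192 of 2637 (7.28%) and 32 of 1219 (2.63%) with at least 50 UMIs, and 4329 of 12282 (35.2%) and 2787 of 10656 (26.2%) with no minimum. For metformin they were 144 of 1350 (10.7%) without possible doublets and 108 of 2853 (3.79%) with 5 UMIs added. Except with 5 UMIs added, part of each difference in count is the number of genes measured. Among genes, Tspan3 with age (-1.27), Ccl5 (-0.72) and Cd63 (0.83) with metformin changed sign without cells holding Ccr7 or Fscn1. Among lists of gene functions, 16 of 27 medians for age and 17 of 26 for metformin changed sign in at least 1 alternative. Those of lectins, chemokines, MHC class II and cholesterol synthesis kept their sign in both comparisons under all alternatives run. The cell cycle median with age was 0.062 after thinning and 0.29 without dividing cells. With metformin the medians without 1 pool ran from -0.28 to 0.040 for MHC class I and from -0.15 to 0.73 for costimulation, both turning sign without pool B, and that of senescence was -0.058 after thinning. The lysosome and lipid median went from 0.43 to -0.13 for age and from -0.22 to 0.42 for metformin without cells holding Ccr7 or Fscn1, and the complement median for metformin from -0.71 to 0.067 and 0.11 without pools A and C. The causes were not tested. No paired analysis was possible because the protocol describes 1 suspension per condition and the labels give no replicate numbers within a condition. If each pool held another mouse, which the labels do not say, the pools could be paired. The aged group limits the precision most, with 37 cells and 178034 UMIs.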
